A study of Homo sapiens with 6 samples.

Results

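The genes described here are the solute carriers, the large group of membrane transporters whose symbols begin with SLC and a digit, in 92.1, an established human line of uveal melanoma, the cancer that arises from pigment cells in the eye. They were chosen by symbol alone, and 8 carriers of melanosomes, glucose, lactate, zinc and cystine (SLC24A5, SLC45A2, SLC2A1, SLC2A3, SLC16A1, SLC16A3, SLC30A1 and SLC7A11) were left out of the set by the same rule. The set holds 187 of the 12010 genes with a listed transcript, through 397 transcripts, and 93 of its genes have 1 listed transcript. By name 182 of them encode transporters, and 5 carry a solute carrier symbol without being one. RNA sequencing compared 3 samples of cells that received DMSO, the solvent, with 3 samples that received 0.1 µM LBH589 in the same medium, both for 24 h and with no other treatment. LBH589, or panobinostat, blocks histone deacetylases, which strip acetyl groups off histone tails and many other proteins. The labels name no genetic change in either group and no separate cultures for the replicates, and all samples come from 1 tumour line, so a p-value here reflects spread among these libraries alone, and that spread may be technical.

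Solute carriers move nutrients, ions, vitamins and metabolites across the plasma membrane and the membranes of mitochondria, lysosomes, the Golgi and synaptic vesicles, and are named by families that share sequence. Most are secondary transporters: they couple the movement of one solute to the gradient of another, often the sodium gradient that the Na,K-ATPase maintains. In tumour cells they are best known for bringing in amino acids, glucose and one-carbon vitamins, and in pigment cells several carriers of melanosomes set the ion content and pH of that organelle.

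Expression is given as FPKM (fragments per kilobase, scaled for the size of the library), summed over the transcripts of a gene, and values of the 3 libraries of a group are given in the order of replicates 1 to 3. Summed FPKM over all named genes was 409292 ± 12707 in DMSO and 361102 ± 6076 FPKM in LBH589 (SD, n = 3 each), and the mitochondrially encoded genes held 35.9 to 45.8% of it in DMSO and 35.2 to 37.4% in LBH589. The files hold no counts, so depth is unknown. All 7 melanocyte markers checked are listed, with summed levels of 2530 to 2670 FPKM in DMSO and 718 to 774 FPKM in LBH589. As a sum, markers of the labelled cell type are thus present in every library, and that sum stood lower with the drug. Levels of single markers are not given, and their part in the results below was not tested. Of the epithelial, fibroblast and leukocyte markers, 1 of 5, 2 of 5 and 0 of 5 are listed, with summed levels of at most 1.12, 5.55 and 0 FPKM in any library.

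Solute carrier genes moved in both directions with LBH589, and rises were more numerous than falls. Of 179 members with a mean of at least 0.5 FPKM, 43 rose and 28 fell at an adjusted p below 0.05 in limma, a linear model of log2(FPKM + 1) fitted over all 11520 genes at that level, and 108 did not pass. That is 24.0% rises and 15.6% falls, where 27.2% of all genes tested rose and 21.6% fell. In all 39.7% of the members were called, against 48.8% of all genes. The median log2 fold change, LBH589 minus DMSO, was 0.12 for the members tested and 0.08 for all genes tested. A difference of 2-fold or more in log2(FPKM + 1) was reached by 18 rises and 16 falls, where 13.2% and 10.7% of all genes had one. The 3 values of one group lay beyond the 3 of the other in 93 members, 58 higher and 35 lower in LBH589, where 59.5% of all genes tested did so (33.0% higher and 26.5% lower).

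These counts have limits set by the files and by scaling. A transcript is listed only where 1 group has a mean of at least 0.5 FPKM, and 16 of the 43 rises had a DMSO mean below 0.5 FPKM, so those members could be tested only because they were higher in LBH589. For 3 of the 28 falls the LBH589 mean was below that level. Among the 85 members with a mean of at least 5 FPKM, 17 rose and 19 fell, where 26.9% and 25.4% of all genes at that level did. Making the library sums equal gave 56 rises and 22 falls, so that rises were 71.8% of the calls in place of 60.6%, and shifted the all-gene median log2 fold change from 0.08 to 0.23, with 32.5% of all genes rising and 17.3% falling. In a culture measured as a whole, fewer cells with a transcript and less of it per cell cannot be told apart.

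**Figure D1:**
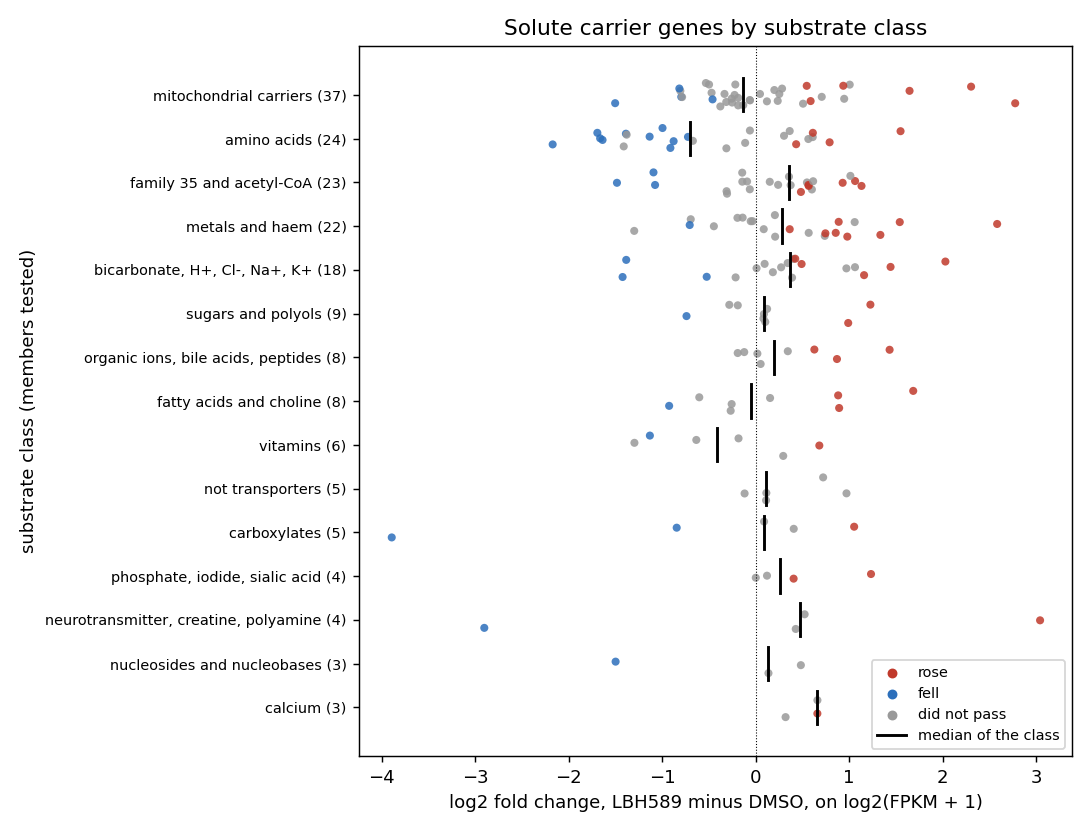
Log2 fold change of the 179 tested members (x axis, LBH589 minus DMSO, on log2(FPKM + 1)) by substrate class (y axis, members tested in brackets). Red points rose, blue points fell, grey points did not pass, and the bar is the median of the class, which lies furthest below 0 for the amino acid carriers, at -0.70.

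The members spanned a wide range of levels, from a mean over the 6 libraries of 0.283 FPKM to 145 FPKM, with a median of 4.31 FPKM. Together they held 0.534, 0.426 and 0.44% with DMSO and 0.441, 0.471 and 0.498% with LBH589 of the FPKM of all named genes, and the groups overlapped. The 5 with the highest means were SLC25A5, SLC25A6, SLC38A2, SLC25A4 and SLC39A6. All 187 members summed to 1904 ± 186 in DMSO and 1696 ± 76.1 FPKM in LBH589, lower in every LBH589 library. In summed FPKM the mitochondrial carriers were the largest class and the amino acid carriers came next in DMSO. The amino acid class went from 469 ± 59.9 to 264 ± 24.1 FPKM, the carboxylate class from 48.03 ± 3.47 to 14.2 ± 1.86 FPKM, and the nucleoside class from 13.4 ± 2.62 to 5.56 ± 1.28 FPKM (SD, n = 3 each), each with no overlap between the groups. In each of the carboxylate and nucleoside classes 1 gene carried the difference. Without SLC16A6 the carboxylate sum was 10.1, 9.15 and 9.19 FPKM with DMSO and 12.6, 14.4 and 10.6 FPKM with LBH589, higher in every LBH589 library, and without SLC29A1 the nucleoside sum was 2.51, 1.37 and 1.81 FPKM with DMSO and 1.69, 1.58 and 3.19 FPKM with LBH589, with overlap. Without SLC38A1, the gene of the class with the largest difference, the amino acid sum was 377 ± 79.6 and 245 ± 19.3 FPKM, still lower in every LBH589 library. Sums of the mitochondrial class (609.7 ± 66.9 and 625 ± 20.2 FPKM) and of the metal class (331 ± 7.42 and 330.5 ± 20.3 FPKM) overlapped. These sums are descriptions of the classes and were not tested.

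**Figure D2:**
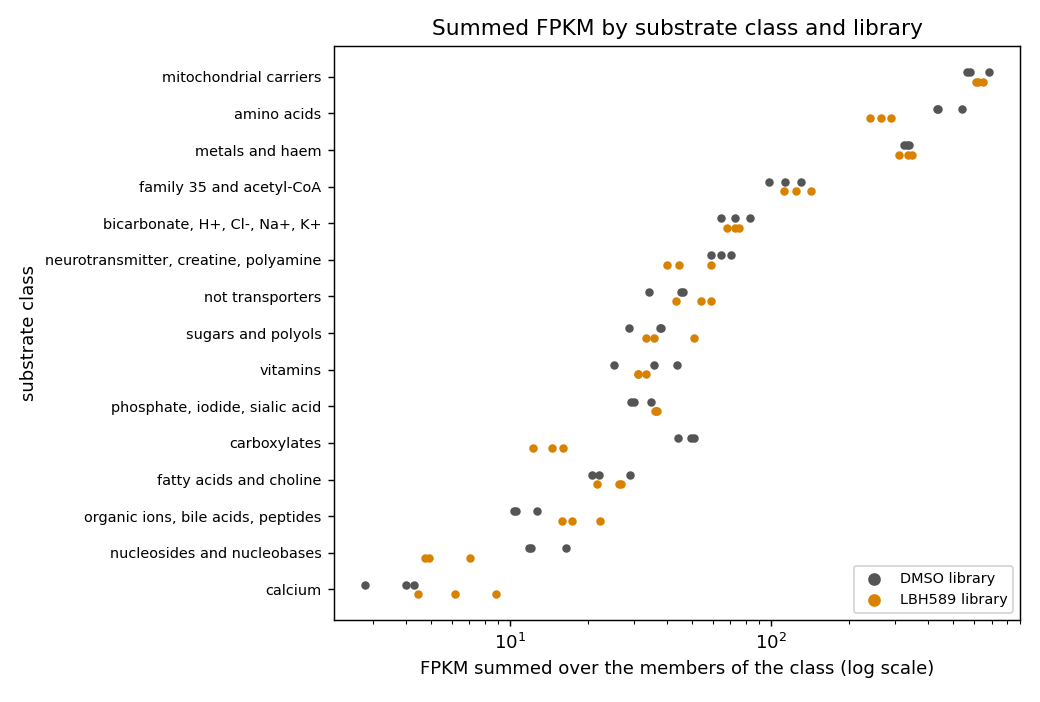
FPKM summed over the members of each substrate class (x axis, log scale), with 1 point per library. Amino acid, carboxylate and nucleoside carriers have all 3 LBH589 points below the DMSO points, the carboxylate and nucleoside positions through SLC16A6 and SLC29A1 alone, while the calcium, organic ion and phosphate classes have all 3 above them.

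The 10 largest rises and the 10 largest falls were taken among called members with separate groups and a higher group mean of 5 FPKM or more, a rule that left 22 rises and 20 falls. In order of size the rises were SLC17A7, SLC25A27, SLC41A2, SLC25A4, SLC36A1, SLC12A2, SLC35A1, SLC13A3, SLC2A13 and SLC25A25, and they range from 3.04 to 0.94 in log2 fold change. The falls were SLC16A6, SLC18B1, SLC38A1, SLC1A5, SLC7A5, SLC6A15, SLC25A13, SLC29A1, SLC35F2 and SLC6A17, from -3.89 to -1.39. Of the 10 falls 5 are amino acid carriers, and the 10 rises come from 8 classes. With the 5 highest means, up to 3 of the smallest adjusted p per class and a list by symbol, the naming rule took 58 members, and any other member named with values was chosen after its values were seen.

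**Figure D3:**
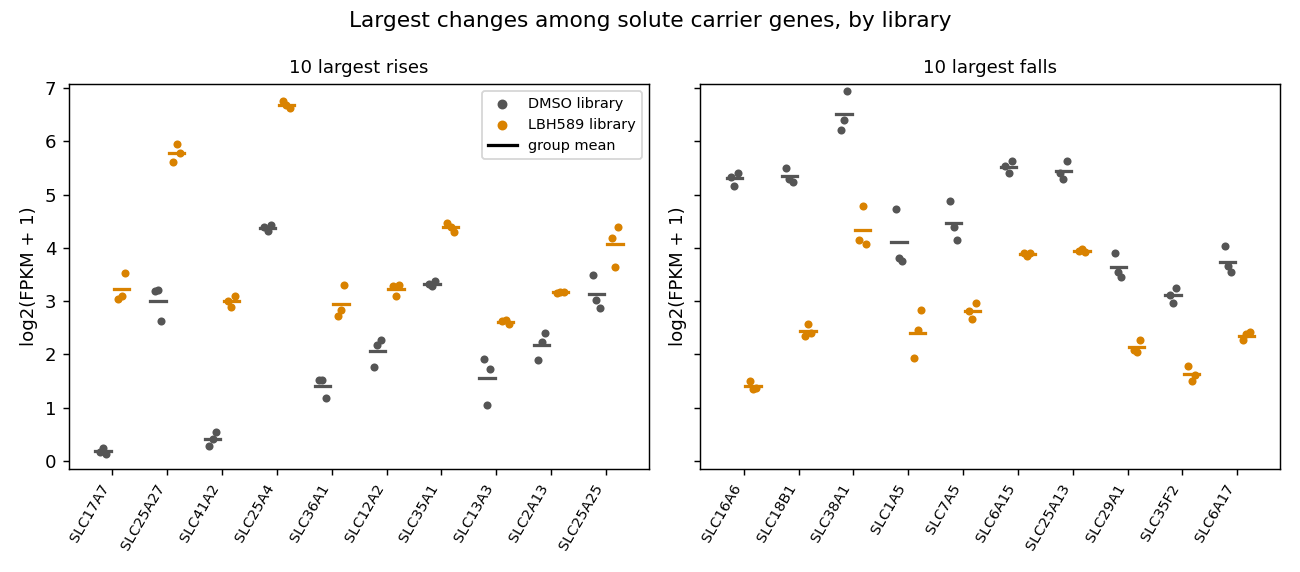
Log2(FPKM + 1) in each library (y axis) for the 10 largest rises (left) and the 10 largest falls (right). Grey points are DMSO, orange points are LBH589, bars are group means, and no gene shown has overlapping groups.

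Amino acid carriers made up 10 of the 28 falls. Of 24 tested, 10 fell and 4 rose, 41.7% and 16.7%, where 21.6% of all genes fell and 27.2% rose, and the median log2 fold change was -0.70 (0.08 over all genes). The median was also below 0 with equal library sums (-0.53, with 7 falls and 4 rises) and after quantile normalization (-0.76, with 10 falls and 2 rises). Over all genes it was 0.23 with equal library sums, with 17.3% falls and 32.5% rises. After quantile normalization it was 0.02 over all genes, with 23.4% falls and 25.1% rises. The carriers of glutamine and large neutral amino acids at the cell surface hold the largest falls. SLC38A1, a sodium-coupled importer of glutamine and other small neutral amino acids, was at 72.995, 82.8 and 121 FPKM with DMSO and 16.7, 26.7 and 15.9 FPKM with LBH589. Every LBH589 library was below every DMSO library by a wide margin (log2 fold change -2.17, SE 0.27, limma adjusted p = 0.00108). SLC1A5, an exchanger that brings in glutamine, was at 25.7, 12.99 and 12.5 FPKM with DMSO and 2.84, 4.50 and 6.09 FPKM with LBH589. It was highest in DMSO replicate 1 and the groups did not overlap (log2 fold change -1.69, SE 0.34, limma adjusted p = 0.0082). SLC7A5, the light chain of the exchanger LAT1 that imports leucine and other large neutral amino acids, was at 28.4, 20.05 and 16.8 FPKM with DMSO and 5.99, 5.36 and 6.78 FPKM with LBH589. LBH589 values lay within a narrow band below all DMSO values (log2 fold change -1.66, SE 0.21, limma adjusted p = 0.00113).

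SLC3A2, the heavy chain that takes SLC7A5 and its relatives to the plasma membrane, was at 77.999, 63.7 and 33.3 FPKM with DMSO and 16.8, 32.6 and 26.8 FPKM with LBH589. The highest LBH589 value lay just below the lowest DMSO value, that of replicate 3, and the fall passed narrowly (log2 fold change -1.13, SE 0.37, limma adjusted p = 0.0471). Its call ended with equal library sums (limma adjusted p = 0.0816), after quantile normalization (0.0502), and without DMSO replicate 1 (0.124), DMSO replicate 2 (0.124) or LBH589 replicate 1, 2 or 3 (0.126, 0.0551 and 0.0961). The gene has 11 listed transcripts, the most abundant with 35.7% of its FPKM. Of the other light chains, SLC7A8 was at 81.9 ± 41.96 in DMSO and 30.4 ± 15.7 FPKM in LBH589 and did not pass (limma adjusted p = 0.0587), with groups that overlap because LBH589 replicate 2 reached 48.3 FPKM and DMSO replicate 3 was at 42.9 FPKM. It passed without either library (limma adjusted p = 0.0343 and 0.0282). SLC7A6 also overlapped, as did SLC7A2, a carrier of arginine and lysine, at 29.6, 8.05 and 34.9 FPKM with DMSO and 6.62, 5.24 and 10.1 FPKM with LBH589. DMSO replicate 2 was apart from the other DMSO libraries, and without it SLC7A2 passed at a log2 fold change of -2.03. SLC7A1, the main carrier of basic amino acids in many cells, was at 17.8 ± 1.76 and 14.1 ± 0.793 FPKM with no overlap and did not pass (limma adjusted p = 0.0565; 0.0456 after quantile normalization).

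SLC38A2, a close relative of SLC38A1 and a glutamine and alanine importer that is induced when amino acids are scarce, moved the other way. It was at 46.1, 49.5 and 56.4 FPKM with DMSO and 90.9, 87.4 and 86.1 FPKM with LBH589. All LBH589 libraries were close together and well above every DMSO library (log2 fold change 0.79, SE 0.10, limma adjusted p = 0.0013). Of the FPKM of both genes, SLC38A2 held 38.7, 37.4 and 31.7% with DMSO and 84.5, 76.6 and 84.4% with LBH589. The gene with more FPKM of the pair was therefore SLC38A1 in every DMSO library and SLC38A2 in every LBH589 library, while their sum went from 143 ± 30.7 to 108 ± 6.04 FPKM. Both of the listed SLC38A2 transcripts were higher in every LBH589 library.

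Among the carriers of the SLC6 family that take up neutral amino acids, chiefly in neurons, SLC6A15 was at 45.3, 41.5 and 48.2 FPKM with DMSO and 13.9, 13.4 and 14.03 FPKM with LBH589. The LBH589 libraries lie close to each other and far below DMSO (log2 fold change -1.64, SE 0.09, limma adjusted p = 6.87e-05). SLC6A17, found on synaptic vesicles, fell from 12.5 ± 2.47 to 4.12 ± 0.28 FPKM. The lysosomal proton-coupled exporter SLC36A1 was at 1.88, 1.86 and 1.26 FPKM with DMSO and 5.63, 6.15 and 8.83 FPKM with LBH589. It was higher in every LBH589 library, most of all in replicate 3 (log2 fold change 1.55, SE 0.20, limma adjusted p = 0.00133). The other called members of the class were at low levels: SLC43A1 fell from 2.21 ± 0.687 to 0.683 ± 0.081 FPKM and SLC6A16 from 0.954 ± 0.119 to 0.0664 ± 0.115 FPKM, while the glutamate carrier SLC1A1 rose from 0.327 ± 0.0452 to 1.04 ± 0.24 FPKM, a call that ended after quantile normalization (limma adjusted p = 0.151). SLC1A1 and SLC38A3 were listed only through LBH589, and they are 2 of the 4 rises of the class. The calls of SLC1A3 and SLC38A6 (falls) and SLC38A3 (a rise) ended with fewer libraries, at folds of like size. SLC1A3, at a log2 fold change of -0.996 with all libraries and -0.82 to -1.09 in those fits, did not pass without any 1 library except DMSO replicate 3 (limma adjusted p from 0.0701 to 0.117), and SLC38A3, at 0.43 and 0.35 to 0.49, without any 1 library except DMSO replicate 1 (0.0677 to 0.129). SLC38A6, at -0.72 and -0.62 to -0.70, did not pass without DMSO replicate 2 or 3 or LBH589 replicate 1 or 3 (0.0552 to 0.0633). With all libraries kept, the SLC38A3 call also ended after quantile normalization, at a log2 fold change of 0.12 (limma adjusted p = 0.456). It ended too with a pseudocount of 0.1 (0.0525) and with the replicate number as a block (0.115). The SLC1A3 call also ended with equal library sums (0.0503).

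**Figure D4:**
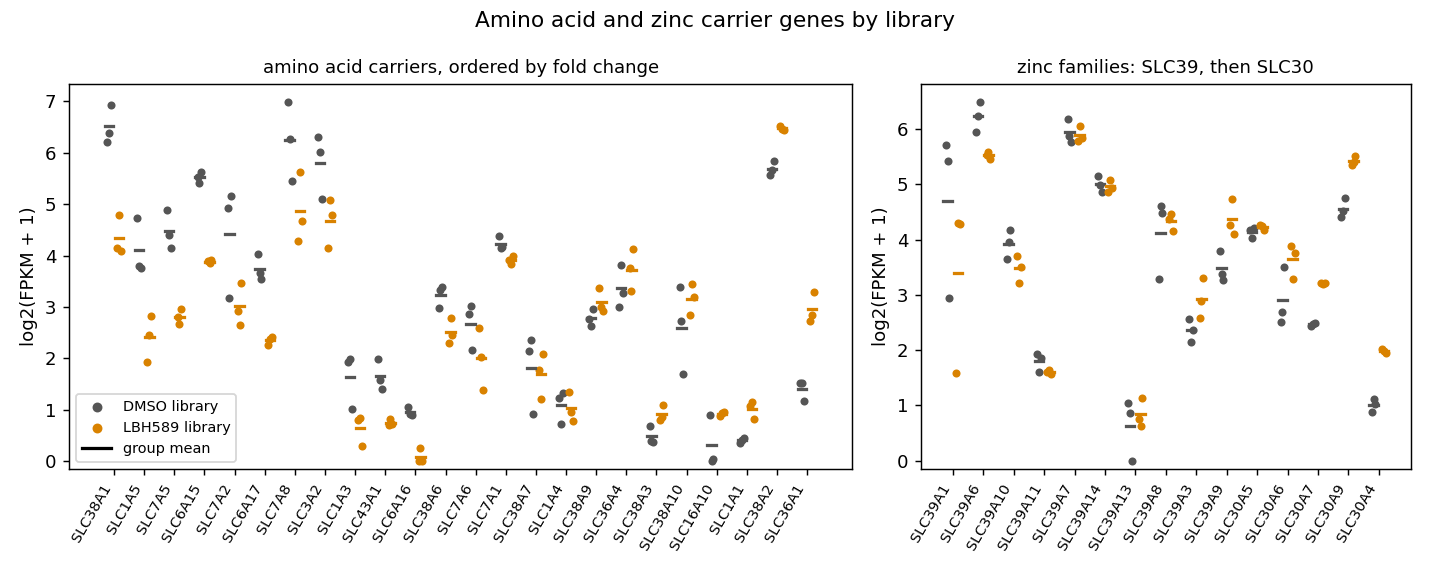
Log2(FPKM + 1) in each library (y axis) for the 24 amino acid carriers, ordered by fold change (left), and for the zinc carrier families SLC39 and SLC30 (right). Grey points are DMSO, orange points are LBH589 and bars are group means. On the left most of the strongly expressed genes, SLC38A1 among them, lie toward the low end, while SLC38A2 lies near the high end.

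Mitochondrial carriers of the SLC25 family move metabolites, nucleotides and ions across the inner membrane. Of 37 tested, 6 rose and 4 fell, 16.2% and 10.8%, both below the 27.2% and 21.6% of all genes. The median log2 fold change was -0.13, against 0.08 over all genes. With equal library sums it was 0.03, against 0.23 over all genes. In that fit 10 rose and 3 fell, where 32.5% and 17.3% of all genes did. The clearest pattern was in the ADP/ATP carriers, which exchange cytosolic ADP for mitochondrial ATP. SLC25A4 is best known from heart and skeletal muscle, SLC25A5 from dividing cells, and SLC25A6 is made in most tissues. SLC25A4 was at 19.997, 18.96 and 20.5 FPKM with DMSO and 107, 101 and 97.4 FPKM with LBH589. It rose with little spread in either group (log2 fold change 2.30, SE 0.09, limma adjusted p = 2.32e-05), a ratio of mean FPKM of 5.14. SLC25A5 was at 193, 150.2 and 161 FPKM with DMSO and 122, 116 and 126 FPKM with LBH589. All 3 LBH589 values lay below the lowest DMSO value (log2 fold change -0.46, SE 0.12, limma adjusted p = 0.0207), but the call ended with equal library sums (limma adjusted p = 0.142) and without LBH589 replicate 1, 2 or 3 (0.0636, 0.0719 and 0.0503). SLC25A6 was at 114, 79.1 and 79.02 FPKM with DMSO and 70.6, 73.8 and 85.04 FPKM with LBH589, overlapping, and did not pass (limma adjusted p = 0.325).

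Of the FPKM of these 3 genes, SLC25A4 held 6.12, 7.64 and 7.85% with DMSO and 35.6, 34.8 and 31.6% with LBH589. The share of SLC25A5 went from 60.5 ± 1.41% to 40.5 ± 0.562% and that of SLC25A6 from 32.3 ± 2.31% to 25.5 ± 2.01% (SD, n = 3 each), so the gene with the smallest share in DMSO passed SLC25A6 in every LBH589 library. Their sum, 279 ± 42.1 and 299.6 ± 8.45 FPKM, overlapped between the groups. The 3 genes are close copies in their coding sequence and SLC25A5 has many processed copies in the genome, so the split of fragments between them is uncertain.

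**Figure D5:**
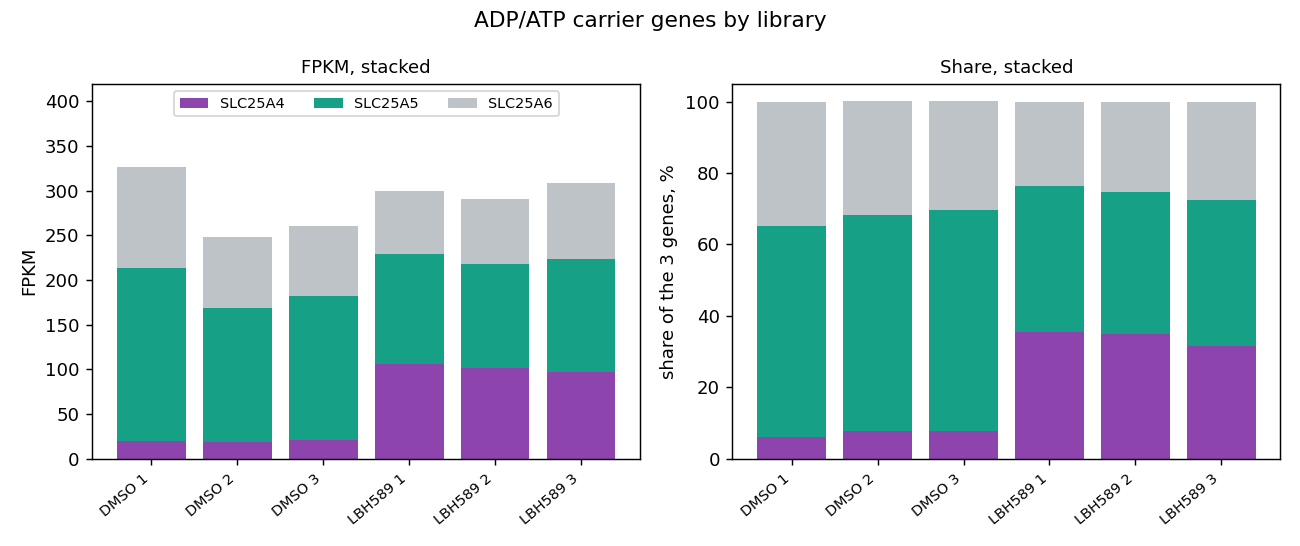
FPKM (left) and share of FPKM in percent (right) of the 3 ADP/ATP carrier genes, stacked, in each of the 6 libraries (x axis). The SLC25A4 part grows from 6.12 to 7.85% in DMSO to 31.6 to 35.6% in LBH589, while the height of the stack overlaps between the groups.

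The promoters of these 3 genes are shown because the genes encode the same activity and differed in their calls. Each is the 250 bases before the RefSeq start listed first for the gene on GRCh38.p14, a later build than the hg19 named for the files. Capitals mark the GC box GGGCGG, read on both strands, a site known for Sp1-type factors.
SLC25A4, chr4:185143016-185143265, plus strand: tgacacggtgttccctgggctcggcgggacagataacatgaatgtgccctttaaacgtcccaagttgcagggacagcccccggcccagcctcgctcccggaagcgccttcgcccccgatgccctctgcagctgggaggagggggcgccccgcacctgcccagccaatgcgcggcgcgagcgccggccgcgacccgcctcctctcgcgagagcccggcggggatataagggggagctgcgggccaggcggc
SLC25A5, chrX:119468194-119468443, plus strand: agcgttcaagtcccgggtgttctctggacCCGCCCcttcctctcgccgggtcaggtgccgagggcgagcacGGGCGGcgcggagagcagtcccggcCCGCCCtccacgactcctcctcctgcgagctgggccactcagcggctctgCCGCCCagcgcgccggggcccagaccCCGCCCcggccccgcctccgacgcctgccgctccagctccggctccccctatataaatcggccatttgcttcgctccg
SLC25A6, chrX:1392114-1392363, minus strand: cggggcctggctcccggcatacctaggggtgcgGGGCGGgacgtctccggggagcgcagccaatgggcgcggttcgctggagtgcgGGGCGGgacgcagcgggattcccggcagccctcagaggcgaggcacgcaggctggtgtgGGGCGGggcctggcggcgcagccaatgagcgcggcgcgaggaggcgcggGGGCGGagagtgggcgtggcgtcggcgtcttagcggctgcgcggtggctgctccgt
The SLC25A4 window holds 0 copies of GGGCGG, the SLC25A5 window 5 and the SLC25A6 window 4. The motif is common: 42.6% of all 35093 such windows hold it, as do 28 of the 46 windows of members that rose, 31 of 45 of those that fell and 79 of 122 of those that did not pass. A match is a description of the letters, not a site.

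SLC25A27, the uncoupling protein UCP4 of brain mitochondria, was at 8.15, 8.21 and 5.15 FPKM with DMSO and 47.9, 60.8 and 54.04 FPKM with LBH589. It was the second largest rise of the set with all 5 listed transcripts higher in mean (log2 fold change 2.78, SE 0.19, limma adjusted p = 1.29e-04). Most of its FPKM lay on short transcripts. ENST00000603486.5_1 (659 bases) had means of 3.31 in DMSO and 28.2 FPKM in LBH589, and ENST00000604616.1_1 (650 bases) 2.43 and 17.2 FPKM. The longest, ENST00000371347.9_1 (2963 bases), had means of 1.00 and 5.42 FPKM. SLC25A13, the aspartate/glutamate carrier citrin that takes part in moving reducing equivalents into mitochondria, was at 41.6, 38.2 and 48.5 FPKM with DMSO and 14.3, 14.8 and 14.1 FPKM with LBH589. LBH589 values were nearly equal and far below DMSO (log2 fold change -1.50, SE 0.11, limma adjusted p = 1.57e-04), while its relative SLC25A12 had means of 6.19 ± 0.167 and 7.50 ± 0.978 FPKM and did not pass (limma adjusted p = 0.169; 0.0471 with equal library sums). The share of SLC25A13 in the sum of both went from 87.3 ± 1.53% to 65.8 ± 3.37% (SD, n = 3 each). The SLC25A13 call rests on the gene sum: its most abundant transcript, ENST00000265631.9_1, was at 39.1, 2.69 and 48.5 FPKM with DMSO, where ENST00000416240.6_1 was at 35.5 FPKM in DMSO replicate 2, and with the most abundant transcript alone it did not pass (limma adjusted p = 0.665). Fragments of the gene were thus listed under a different transcript in DMSO replicate 2 than in the other DMSO libraries. With the most abundant transcript alone, 50 of the 71 calls remained. Besides SLC25A13, the calls of SLC3A2, SLC4A2, SLC4A7, SLC10A7, SLC12A2, SLC12A7, SLC13A3, SLC22A17 and SLC23A2 ended. So did those of SLC25A25, SLC27A6, SLC35A1, SLC35A5, SLC35F1, SLC38A6 and SLC39A9. For these genes the call belongs to the sum over transcripts. The calls of SLC1A3, SLC25A29, SLC38A3 and SLC44A3 ended too. Each has 1 listed transcript, so its values were unchanged and only the fit over all genes differed. Over the calls that ended, the adjusted p in limma ranged from 0.0513 to 0.961.

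SLC25A25, a calcium-regulated carrier of ATP-magnesium and phosphate, rose from 7.92 ± 2.06 to 16.2 ± 4.39 FPKM, a call that ended without DMSO replicate 2 (limma adjusted p = 0.0703), DMSO replicate 3 (0.0667), LBH589 replicate 1 (0.0725) or LBH589 replicate 3 (0.074). SLC25A23, of the same subfamily, fell from 31.7 ± 6.57 to 17.6 ± 1.95 FPKM (limma adjusted p = 0.0111). SLC25A42, which carries coenzyme A, was at 0.157 ± 0.16 and 2.60 ± 0.171 FPKM and SLC25A40, a carrier tied to mitochondrial glutathione, at 6.32 ± 0.385 and 10.02 ± 0.895 FPKM, both rises. SLC25A42 was listed only through LBH589. SLC25A33, a carrier of pyrimidine nucleotides, fell from 7.06 ± 0.535 to 3.58 ± 0.161 FPKM. The phosphate carrier SLC25A3, which supplies ATP synthase, was at 31.3 ± 7.28 and 26.96 ± 1.28 FPKM, overlapped and did not pass (limma adjusted p = 0.397).

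The largest fall of the set was that of SLC16A6, a member of the monocarboxylate transporter family. It was at 39.3, 34.9 and 41.4 FPKM with DMSO and 1.84, 1.56 and 1.58 FPKM with LBH589. The DMSO libraries are close together, the LBH589 libraries are near the bottom of the range, and all 3 listed transcripts were lower in mean (log2 fold change -3.89, SE 0.12, limma adjusted p = 1.61e-05). Of 5 tested carboxylate carriers, 2 fell and 1 rose, where 21.6% and 27.2% of all genes did. SLC16A9 fell at a low level from 1.25 ± 0.182 to 0.252 ± 0.112 FPKM. SLC13A3, a sodium-coupled carrier of succinate and other dicarboxylates, rose from 2.04 ± 0.876 to 5.12 ± 0.179 FPKM (limma adjusted p = 0.0126), with no overlap. SLC16A4 and SLC16A7 overlapped and did not pass.

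The carriers of transmitters and related amines hold the largest rise and the second largest fall. SLC17A7, the vesicular glutamate transporter VGLUT1 of neurons, was at 0.131, 0.187 and 0.0896 FPKM with DMSO and 7.26, 7.57 and 10.5 FPKM with LBH589. It was at a trace in each DMSO library and at a moderate level in each LBH589 library, and it was the largest rise of the set (log2 fold change 3.04, SE 0.17, limma adjusted p = 5.80e-05). With so low a DMSO level it was listed only through LBH589. SLC18B1, a vesicular transporter of polyamines, was at 43.9, 38.3 and 36.7 FPKM with DMSO and 4.06, 4.96 and 4.29 FPKM with LBH589. It was the second largest fall, with no overlap (log2 fold change -2.90, SE 0.12, limma adjusted p = 2.85e-05). Of the other 2 in the class, the creatine carrier SLC6A8, at 20.7 ± 2.51 and 28.5 ± 6.56 FPKM, did not overlap but did not pass (limma adjusted p = 0.0992; 0.041 with equal library sums), and the taurine carrier SLC6A6 overlapped.

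Among carriers of metals and haem, 8 of 22 tested rose and 1 fell, 36.4% and 4.55%, where 27.2% and 21.6% of all genes did, with a median log2 fold change of 0.29. The zinc carriers fall into families of opposite direction. SLC39 proteins bring zinc into the cytosol, and most SLC30 proteins take it out of the cytosol, to the outside or into vesicles and the Golgi. Of 10 tested SLC39 genes, 1 rose and 1 fell, and of 5 tested SLC30 genes 3 rose and 0 fell, where 27.2% of all genes rose and 21.6% fell; with so few genes the families were not compared. The SLC39 rise was that of SLC39A9, from 10.3 ± 2.21 to 19.98 ± 5.01 FPKM (limma adjusted p = 0.0167), and it ended without DMSO replicate 2 (0.0539). SLC39A6 was at 60.7, 74.4 and 89.2 FPKM with DMSO and 45.2, 46.8 and 42.97 FPKM with LBH589. It was lower in every LBH589 library (log2 fold change -0.71, SE 0.15, limma adjusted p = 0.00993). SLC30A7, a Golgi zinc importer, was at 4.39, 4.54 and 4.64 FPKM with DMSO and 8.32, 8.16 and 8.29 FPKM with LBH589. Its groups are far apart relative to their spread (log2 fold change 0.75, SE 0.10, limma adjusted p = 0.0016). SLC30A4 rose from 1.02 ± 0.164 to 2.97 ± 0.1 FPKM and SLC30A9 from 22.7 ± 2.96 to 41.8 ± 2.50 FPKM. SLC39A14, which also carries iron and manganese, was at 31.03 ± 3.14 and 30.3 ± 2.34 FPKM and SLC39A7, an exporter of zinc from the endoplasmic reticulum, at 61.1 ± 9.64 and 58.6 ± 6.23 FPKM, and both overlapped and did not pass. SLC39A1 was at 51.3, 41.8 and 6.70 FPKM with DMSO and 2.01, 18.8 and 18.4 FPKM with LBH589. Its libraries disagreed within both groups, and it did not pass (limma adjusted p = 0.339).

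Of the 3 members of the magnesium family SLC41, 2 rose. For SLC41A2 and SLC41A3 the DMSO mean was below 0.5 FPKM, so both are listed only because they were higher in LBH589, and the direction of the family is no finding. SLC41A2 was at 0.215, 0.332 and 0.452 FPKM with DMSO and 6.97, 6.45 and 7.51 FPKM with LBH589. It went from a trace to a moderate level (log2 fold change 2.58, SE 0.13, limma adjusted p = 4.84e-05). SLC41A1 was at 10.1 ± 0.6 and 13.3 ± 0.804 FPKM, a call that ended without DMSO replicate 2 or 3 (limma adjusted p = 0.0837 and 0.0552) or LBH589 replicate 1, 2 or 3 (0.0757, 0.0599 and 0.0902). SLC41A3 did not pass (limma adjusted p = 0.0677; 0.0015 without LBH589 replicate 1). Also higher were SLC31A2, a copper carrier of endosomes, listed at 0, 0.479 and 0 FPKM with DMSO and 1.68, 1.84 and 2.11 FPKM with LBH589, and SLC48A1, a haem carrier of lysosomes, at 1.55, 0 and 0.799 FPKM with DMSO and 2.84, 3.65 and 5.32 FPKM with LBH589. Both rose (limma adjusted p = 0.00196 and 0.0166) with no overlap, but the SLC48A1 call ended without LBH589 replicate 3 (limma adjusted p = 0.0569). SLC31A2 was listed only through LBH589. The main copper importer, SLC31A1, had means of 13.8 ± 0.757 and 12.4 ± 0.195 FPKM and did not pass (limma adjusted p = 0.268).

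Of 18 tested carriers of bicarbonate, protons, chloride and alkali cations, 5 rose and 3 fell. That is 27.8% and 16.7%, near the 27.2% and 21.6% of all genes. With equal library sums 8 rose and 2 fell, where 32.5% and 17.3% of all genes did. The falls were 1 without DMSO replicate 2, LBH589 replicate 1 or LBH589 replicate 3, and 2 without DMSO replicate 1 or LBH589 replicate 2. SLC4A8, a sodium-driven chloride/bicarbonate exchanger of neurons, was listed at 0 FPKM in all 3 DMSO libraries and at 4.75, 2.55 and 2.33 FPKM in the LBH589 libraries (limma adjusted p = 7.66e-04). SLC9A7, a sodium-potassium/proton exchanger of the Golgi, was at 0.106, 0.12 and 0.0464 FPKM with DMSO and 2.01, 1.97 and 1.91 FPKM with LBH589. Both genes were thus near 0 in DMSO and present in each LBH589 library. They were listed only through LBH589, and 3 of the 5 rises of the class had a DMSO mean below 0.5 FPKM. SLC12A2, the sodium-potassium-chloride cotransporter NKCC1 that loads cells with chloride, was at 2.38, 3.50 and 3.80 FPKM with DMSO and 8.69, 7.55 and 8.81 FPKM with LBH589. It was higher in every LBH589 library (log2 fold change 1.16, SE 0.17, limma adjusted p = 0.00213). The bicarbonate importer SLC4A7, which raises cell pH, fell from 10.8 ± 1.25 to 7.24 ± 0.944 FPKM (limma adjusted p = 0.0219), a call that ended with equal library sums (0.0594) and without DMSO replicate 2 (0.0689) or LBH589 replicate 1 or 3 (0.0652 and 0.0701).

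The anion exchanger SLC4A2, which exports bicarbonate, was at 40.2, 27.5 and 21.2 FPKM with DMSO and 8.12, 10.05 and 13.6 FPKM with LBH589 and fell (log2 fold change -1.38, SE 0.28, limma adjusted p = 0.00753); it has 9 listed transcripts, and the most abundant alone did not pass (0.142). The potassium-chloride cotransporter SLC12A7 fell from 4.07 ± 2.14 to 0.751 ± 0.0773 FPKM, but its call ended without any library but DMSO replicate 3 (limma adjusted p between 0.0536 and 0.0575). SLC12A4, of the same subfamily, was higher in mean and did not pass (limma adjusted p = 0.0545), but it passed without DMSO replicate 3 (0.0375) or DMSO replicate 2 (0.0329). Of 3 calcium exchangers, SLC8A2, known from brain, rose from 0.235 ± 0.02 to 0.98 ± 0.413 FPKM (limma adjusted p = 0.0213), a call that ended after quantile normalization (0.174) and without DMSO replicate 2 (0.0589), DMSO replicate 3 (0.0557) or LBH589 replicate 3 (0.0585). SLC8A2 was listed only through LBH589. SLC8A1, known from heart, overlapped at 2.54 ± 0.876 and 3.46 ± 1.40 FPKM. SLC8B1, the mitochondrial exchanger, was at 0.925 ± 0.374 and 2.06 ± 0.66 FPKM without overlap and did not pass (limma adjusted p = 0.0588; 0.0297 without LBH589 replicate 3).

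Family 35, which carries nucleotide sugars into the Golgi and the endoplasmic reticulum and has several members of unknown substrate, was grouped with the acetyl-CoA carrier SLC33A1. Of 23 tested, 6 rose and 3 fell, where 27.2% of all genes rose and 21.6% fell. After quantile normalization 5 rose and 5 fell, where 25.1% and 23.4% of all genes did. SLC35A1, which supplies CMP-sialic acid to the Golgi, was at 8.95, 8.69 and 9.38 FPKM with DMSO and 21.1, 19.9 and 18.8 FPKM with LBH589. The LBH589 values are all well above the DMSO values (log2 fold change 1.06, SE 0.10, limma adjusted p = 3.33e-04). SLC35F1, of unknown substrate, rose from 0.306 ± 0.0689 to 1.86 ± 0.0188 FPKM. It was listed only through LBH589, and 2 of the 6 rises of the class had a DMSO mean below 0.5 FPKM. SLC35F2 was at 7.71, 6.85 and 8.48 FPKM with DMSO and 2.45, 1.81 and 2.05 FPKM with LBH589. SLC35F2 was lower in every LBH589 library (log2 fold change -1.48, SE 0.14, limma adjusted p = 4.07e-04). SLC35D2 and SLC35G1 fell from 16.4 ± 2.99 to 7.21 ± 1.05 FPKM and from 5.10 ± 1.13 to 1.85 ± 0.338 FPKM. SLC35B2 was listed at 8.99, 0 and 0.141 FPKM with DMSO and 0, 7.40 and 10.2 FPKM with LBH589. Values at or near 0 and far above it occur in both groups, so a mean describes neither (limma adjusted p = 0.541).

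The other classes are small, and their counts, here and below, stand beside the 27.2% rises and 21.6% falls of all genes. With equal library sums all genes had 32.5% rises and 17.3% falls, and after quantile normalization 25.1% and 23.4%. SLC29A1, the main nucleoside importer ENT1, was at 13.9, 10.6 and 10.01 FPKM with DMSO and 3.23, 3.15 and 3.84 FPKM with LBH589. It fell with no overlap (log2 fold change -1.50, SE 0.16, limma adjusted p = 5.78e-04) and was the 1 of 3 tested nucleoside carriers to be called. SLC29A3, of lysosomes, was at 0.558 ± 0.156 and 0.725 ± 0.29 FPKM and SLC29A4, which also carries amines, at 0.302 ± 0.328 and 0.793 ± 0.215 FPKM; the latter passed only without DMSO replicate 1 (limma adjusted p = 0.0188). Of 9 tested carriers of sugars and polyols, 2 rose and 1 fell: SLC2A12, a facilitative glucose carrier, was at 0.683, 0.753 and 0.678 FPKM with DMSO and 2.89, 3.10 and 2.98 FPKM with LBH589. Both groups were tight and far apart (log2 fold change 1.23, SE 0.11, limma adjusted p = 3.30e-04). SLC2A13, a proton-coupled carrier of myo-inositol, rose from 3.56 ± 0.789 to 7.95 ± 0.0755 FPKM, and SLC37A1, of the glucose-6-phosphate exchangers, fell from 1.69 ± 0.431 to 0.606 ± 0.194 FPKM. SLC2A4, the insulin-responsive glucose carrier, was at 1.33 ± 0.381 and 1.13 ± 0.744 FPKM and overlapped.

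Of 6 tested vitamin carriers, SLC23A2, a sodium-coupled importer of vitamin C, rose and SLC19A1, the reduced folate carrier, fell (1 and 2 after quantile normalization). SLC23A2 was at 14.7, 13.5 and 14.6 FPKM with DMSO and 23.3, 22.04 and 25.1 FPKM with LBH589. Both groups were tight and did not overlap (log2 fold change 0.68, SE 0.10, limma adjusted p = 0.00187). In DMSO replicate 2 the gene was listed mostly under ENST00000379333.5_1, which is at or near 0 elsewhere, and with the most abundant transcript alone the rise did not pass (limma adjusted p = 0.112). SLC19A1 went from 1.93 ± 0.706 to 0.317 ± 0.159 FPKM (log2 fold change -1.13, SE 0.21, limma adjusted p = 0.00586). The thiamine carrier SLC19A2 was at 13.5, 4.29 and 17.3 FPKM with DMSO and 3.71, 3.77 and 3.23 FPKM with LBH589. DMSO replicate 2 was apart from the other DMSO libraries, and the gene passed only without it (limma adjusted p = 0.00123) or after quantile normalization (0.0442).

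Of 8 tested carriers of fatty acids and choline, 3 rose and 1 fell (3 and 0 with equal library sums). SLC27A6, a fatty acid carrier of heart, was listed at 0.0737, 0 and 0 FPKM with DMSO and 2.25, 2.45 and 2.19 FPKM with LBH589. It rose from at or near 0 (limma adjusted p = 1.00e-04). The gene was listed only through LBH589, and 2 of the 3 rises of the class had a DMSO mean below 0.5 FPKM. The choline carrier SLC44A1 rose from 1.92 ± 0.757 to 4.33 ± 0.77 FPKM, a call that ended without LBH589 replicate 1 or 2 (limma adjusted p = 0.0741 and 0.0669), and SLC44A5 rose from 0.414 ± 0.235 to 1.59 ± 0.242 FPKM. Of 8 tested carriers of organic ions, bile acids and peptides, 3 rose and 0 fell (3 and 1 after quantile normalization): SLC22A17, a brain member of the organic cation family, went from 0.62 ± 0.609 to 3.16 ± 0.351 FPKM (limma adjusted p = 0.0509 with a pseudocount of 0.1), SLC22A23 from 0.319 ± 0.0492 to 1.43 ± 0.419 FPKM and SLC10A7 from 3.53 ± 0.623 to 5.99 ± 0.845 FPKM. SLC22A23 was listed only through LBH589. The SLC10A7 call ended without DMSO replicate 2 (limma adjusted p = 0.0523) or LBH589 replicate 1 (0.0691). In the class of phosphate, iodide and sialic acid, the sodium/iodide symporter SLC5A5, which concentrates iodide in the thyroid, was listed at 0, 0.0302 and 0 FPKM with DMSO and 1.11, 1.27 and 1.79 FPKM with LBH589. It was at or near 0 in DMSO and present in each LBH589 library (limma adjusted p = 7.66e-04), and was listed only through LBH589. SLC17A5, the lysosomal sialic acid exporter, rose from 5.65 ± 0.0604 to 7.82 ± 0.00991 FPKM, a call that ended without LBH589 replicate 1, 2 or 3 (limma adjusted p = 0.0602, 0.0576 and 0.052), and the phosphate importer SLC20A1 had means of 17.2 ± 2.77 and 18.7 ± 1.17 FPKM and did not pass (limma adjusted p = 0.496).

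The called members not yet described had differences at or below 0.93 in size. SLC25A29, SLC26A2, SLC35A5, SLC35E3, SLC35E4, SLC35F5 and SLC9A9 rose by 0.42 to 0.93 on the log2 scale. SLC35E4 and SLC9A9 were listed only through LBH589. SLC44A3 fell by 0.93. The calls of all these members but SLC35E3 ended without at least 1 library, and the adjusted p in limma then ranged from 0.0508 to 0.128. With all libraries kept, quantile normalization ended those of SLC9A9 (log2 fold change 0.12, limma adjusted p = 0.464), SLC25A29 (0.102) and SLC35E4 (0.0896). The replicate block ended those of SLC25A29, SLC26A2, SLC35A5, SLC35F5 and SLC9A9 (limma adjusted p from 0.0512 to 0.0719). The SLC44A3 call ended with a pseudocount of 0.1 (0.0562) and equal library sums (0.0619).

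None of the 5 members that are not transporters passed in limma at an adjusted p below 0.05. SLC9A3R1, a scaffold under the plasma membrane, was at 4.70, 4.43 and 2.17 FPKM with DMSO and 6.84, 4.99 and 14.8 FPKM with LBH589. The groups do not overlap, but LBH589 replicate 3 was far above the others (limma adjusted p = 0.101). SLC4A1AP, a nuclear protein, was at 29.9 ± 2.62 and 32.5 ± 4.99 FPKM, and SLC2A4RG, a transcription factor, at 1.32 ± 0.32 and 1.14 ± 0.257 FPKM. SLC7A6OS lies on the strand opposite a neighbour and its reads cannot be told from it where strand was not used. SLC35E2A and SLC35E2B are near-identical copies, so the split between them is uncertain. The 8 members below the level tested (SLC12A8, SLC16A5, SLC22A4, SLC25A21, SLC25A22, SLC29A2, SLC35E2A and SLC43A3) had means over the 6 libraries of 0.283 to 0.467 FPKM.

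The CACGTG E-box, a site of helix-loop-helix factors that include MITF and MYC with MAX, was counted in the same 250-base windows, which exist for 151 of the 187 members. It was held by 11 of the 45 windows of members that fell (24.4%), by 5 of 46 of those that rose (10.9%), by 12 of 122 of those that did not pass (9.84%) and by 6.34% of all windows. The genes that fell and hold it are SLC1A5, SLC7A5, SLC25A13, SLC29A1, SLC12A7, SLC4A2, SLC43A1, SLC6A16, SLC16A9 and SLC25A33. Those that rose and hold it are SLC26A2, SLC35E3, SLC35A5, SLC2A13 and SLC36A1. The related CATGTG was held by 4 of the 45, 0 of the 46, 7 of the 122 and 9.41% of all. All windows cover 27305 genes, more than the 12010 listed here, and no share was counted over all genes that fell. The GC box, too, was held by a larger share of the windows of members than of all windows. Of the 10 largest falls 8 have a window and 4 of these hold CACGTG, while SLC18B1, SLC38A1, SLC35F2 and SLC6A17 do not. Among the 10 largest rises SLC36A1 and SLC2A13 hold CACGTG. A gene can have more than 1 window: the 26 genes that fell have the 45. For SLC7A5 and SLC25A13, examples with the motif, the first window that holds CACGTG is shown. For SLC38A1, an example without it, the window listed first is shown. Capitals mark the GC box and both E-boxes on either strand.
SLC7A5, chr16:87869508-87869757, minus strand: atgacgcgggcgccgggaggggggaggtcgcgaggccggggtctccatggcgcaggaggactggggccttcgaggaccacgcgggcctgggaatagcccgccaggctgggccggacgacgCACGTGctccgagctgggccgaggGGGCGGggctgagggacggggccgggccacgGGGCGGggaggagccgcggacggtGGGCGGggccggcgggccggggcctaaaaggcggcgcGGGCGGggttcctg
SLC25A13, chr7:96322099-96322348, minus strand: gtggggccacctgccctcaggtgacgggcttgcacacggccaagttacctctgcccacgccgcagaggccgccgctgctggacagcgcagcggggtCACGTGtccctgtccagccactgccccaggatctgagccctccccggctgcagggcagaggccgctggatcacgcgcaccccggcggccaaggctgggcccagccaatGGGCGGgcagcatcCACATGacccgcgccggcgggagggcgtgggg
SLC38A1, chr12:46266517-46266766, minus strand: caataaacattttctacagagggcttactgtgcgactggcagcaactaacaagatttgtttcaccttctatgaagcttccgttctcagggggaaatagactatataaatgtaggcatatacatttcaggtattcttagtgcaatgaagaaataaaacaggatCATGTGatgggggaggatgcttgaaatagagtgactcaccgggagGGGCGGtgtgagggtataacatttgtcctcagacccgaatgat
In SLC7A5 the CACGTG starts 130 bases before the RefSeq start of the window shown, and in SLC25A13 it starts 154 bases before. The motifs were chosen with the calls known, windows of 1 gene can overlap, and no binding was measured, so these are descriptions of letters.

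Transport genes outside the set give the setting, and their counts stand beside the 27.2% rises and 21.6% falls of all genes. Of 6 tested Na,K-ATPase subunits, which build the sodium gradient, 2 rose and 2 fell, and the beta subunit ATP1B1 rose from 9.59 ± 0.602 to 66.9 ± 5.24 FPKM (limma adjusted p = 2.43e-05). Of 26 tested ABC transporters, the ATP-driven pumps and their relatives, 6 rose and 10 fell, with ABCC2 from 30.8 ± 0.906 to 3.05 ± 0.487 FPKM and ABCB5 from 11.98 ± 2.30 to 0.326 ± 0.122 FPKM among the falls. Of 30 tested members of the superfamily with other names, 8 rose and 3 fell, among them MPC2, a subunit of the mitochondrial pyruvate carrier, from 14.3 ± 4.21 to 69.6 ± 8.18 FPKM and the phosphate exporter XPR1 from 11.9 ± 2.10 to 28.9 ± 1.82 FPKM. BSG, the chaperone of the lactate carriers, rose from 159 ± 47.7 to 354 ± 17.3 FPKM. Of the carriers left out of the set, SLC24A5 (106 ± 24.2 and 1.40 ± 0.196 FPKM) and SLC45A2 fell, SLC2A3 (2.19 ± 0.279 and 14.8 ± 1.59 FPKM) and SLC30A1 rose, and SLC2A1, SLC7A11 and SLC16A1 did not pass. SLC24A5 thus fell further, at a log2 fold change of -5.46, than any member of the set.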

How the data were processed

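Per the labels' protocols, TruSeq RNA libraries were built from total RNA of 92.1 cells: 3 DMSO and 3 LBH589; the groups and replicate numbers come from the sample titles and treatment labels. The authors deposited FPKM per transcript in 1 file per library. Bowtie 0.12.2 and the build hg19 are listed in the submitters' processing notes, with no role given; the counting tool, annotation and use of strand were not named there, so they are not given in the sources used. Of 30624 listed transcripts, 30504 (99.6%) were named through GENCODE release 29, without its coordinates, and FPKM was summed per gene. No transcript has a mean below 0.5 FPKM in both groups.

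Tests used limma 3.58.1 in R 4.3.3, with log2(FPKM + 1) as the response, over genes whose mean reached 0.5 FPKM (trend and robust moderation, statmod 1.5.0), with Benjamini-Hochberg adjustment over all 11520 genes and a threshold of 0.05. The code was tested on simulated data. No fold is given where a group is listed at 0, which can be a failed estimate. An exact permutation test of 3 against 3 cannot go below p = 0.1, so none is reported. The members and the lists, motifs and naming rule were chosen with earlier results of these data known. Named members are the 10 largest rises and falls as described, the 5 with the highest mean, up to 3 per class with the smallest adjusted p, and 14 chosen by symbol. Promoter sequences are from RefSeq (GRCh38.p14). Alternatives were the pseudocount, the filter, equal library sums, quantile normalization, moderation, a replicate block, the most abundant transcript and leaving out each library. Some genes are not reported here.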

Additional observations from a re-analysis of the deposited data

How the results depend on the processing

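No call turned to the opposite direction under any of the 14 alternatives. The count of rises moved most when the minimum mean was raised to 5 FPKM, to 17 rises and 19 falls among 85 members. Leaving out 1 library at a time gave 35 to 49 rises and 21 to 28 falls. Equal library sums gave 56 and 22, quantile normalization 37 and 32, the most abundant transcript 31 and 23, a pseudocount of 0.1 gave 40 and 28, no filter 44 and 30, and limma without trend and robust moderation 43 and 28. Adding the replicate number as a block gave 35 rises and 29 falls, with 60 of the 71 calls shared; it ended the named calls of SLC3A2 (limma adjusted p = 0.0824), SLC10A7 (0.0679), SLC17A5 (0.0673) and SLC44A1 (0.0514) and made that of SLC8B1 (0.0282). Same-numbered libraries did not deviate together (r = -0.104, 0.0215 and -0.035 across genes, which are not independent replicates), so the numbers were not taken to pair the samples. FPKM gives no depth, so levels near 0 carry no interval, and members near the 0.5 FPKM minimum had to be higher in 1 group to be listed.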
